A study of Mus musculus with 56 samples.

Results

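The cell cycle and mitosis genes printed on the MUSV29K nylon microarray were followed in mouse lung after an intravenous injection of oleic acid (OA), which injures the lung capillaries and serves as a model of the acute respiratory distress syndrome. Members were chosen by gene symbol alone: cyclins, cyclin-dependent kinases (CDK) and their Cdkn inhibitors, Cdc, Mcm, Aurk, Bub, Cenp, Plk, Kif and E2f symbols, Top2a and Pcna, leaving out symbols that begin with Cdc42. In all 101 clones of 71 genes matched, of 7625 clones of 5883 genes with a symbol. The 5 clones of Cdkn inhibitors were kept apart from the other 96. All mice were wild-type C57Bl/6J females, 7 weeks old and anesthetized for the injection, and no group carried a transgene or deletion. OA mice were sacrificed at 1 hour (4 mice), 1.5 hours (6 mice), 3 hours (7 mice), 4 hours (4 mice), 18 hours (3 mice) and 24 hours (3 mice), which gave 27 mice on 50 microarrays. Controls received physiological serum, with 8 mice on 9 microarrays at 1, 1.5, 3, 18 and 24 hours and none at 4 hours. The early stage is 1 and 1.5 hours, the intermediate stage 3 and 4 hours, and the late stage 18 and 24 hours.

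A dividing cell copies its DNA and then separates the copies in mitosis, and the order of these steps is set by cyclin-dependent kinases that are active only while a cyclin is bound to them. Cdkn proteins hold these kinases back, E2f factors control the genes of DNA replication, Mcm proteins open the origins, and the Aurora, Polo-like and Bub kinases with centromere proteins and kinesins carry the chromosomes through mitosis. In the adult lung most cells rest outside the cycle, and Cdkn1a (p21) is known as a stress-induced inhibitor that keeps cells there. Several symbols chosen by the rule belong to genes with other work: Cdk5rap1 encodes an enzyme that modifies mitochondrial transfer RNA, Cdc37 a partner of the chaperone Hsp90, Cdc73 a subunit of a transcription elongation complex, and Kif3b, Kif5a and Kif5c motors of transport. Role groups also follow the symbol. Ccndbp1, a cyclin D-binding protein and not a cyclin, is counted with the cyclins, and Mcm3ap, an Mcm3-associated protein, with the replication genes.

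Signal is given as log2 of the quantile-normalized intensity of a clone, averaged over the microarrays of a mouse. A clone was counted as above background on a microarray where it exceeded the 95th percentile reached by that microarray's own empty spots, which lay between 8.81 and 9.46. By this count 29 of the 101 clones were above background on 25 or more of the 50 OA microarrays, 6 on all of them, and 62 on none. Over all 7625 clones 34.7% were above background on 25 or more microarrays and 43.4% on none, against 28.7% and 61.4% of the members. Cyclins were detected most often, with 7 of 11 clones above background on 25 or more microarrays. None of the 10 centromere clones and none of the 3 E2f clones reached that count, and of the 19 kinesin clones 3 did. Of the 13 clones of mitotic kinases and checkpoint proteins only Bub3 and Aurkaip1, an Aurora A partner, reached it. One OA mouse stood apart, P7L2 at 1.5 hours with a single microarray, on which 13 members were above background, the fewest of any OA microarray. It had the highest Cdc20 (10.46, the other mice at most 8.23), Kif2c (8.38, the others at most 7.23) and Plk1 (8.97, the others at most 8.19), and the lowest Aurka (5.41, the others at least 7.16), Pcna (8.59, the others at least 9.47) and Mcm3 in its first clone. Without it Cdkn1a and Cdk5rap1 were still called over the 6 time points, and the rise of Cdk7 described below was not called (limma, adjusted p = 0.057). Values of the clones at or under background could not be set apart from empty spots. In whole lung fewer cells of a type and less RNA per cell cannot be told apart.

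**Figure D1:**
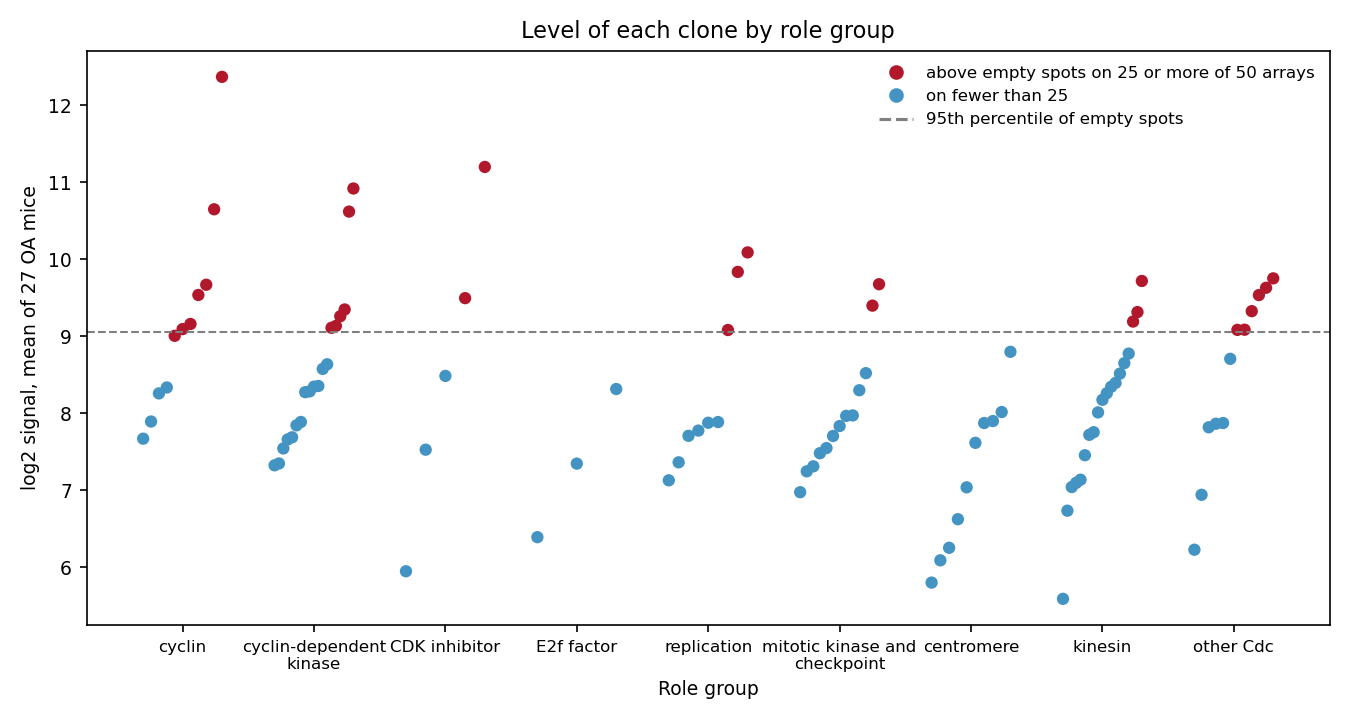
Mean log2 signal over 27 OA mice (vertical axis) of each of the 101 clones, placed by role group (horizontal axis), with the 95th percentile of the empty spots on the median microarray as a dashed line. Red points are the 29 clones above background on 25 or more of 50 microarrays, and every E2f and centromere clone lies among the blue points.

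Which of these genes moved over the OA time course was asked with limma's moderated F test over the 6 time points. Only 2 of the 101 clones were called at an adjusted p under 0.05, Cdkn1a and Cdk5rap1, which is 1.98% of the members. Of all 7625 clones 2.01% were called, so the share among the members was that of the microarray as a whole. At an unadjusted p under 0.05 the F test took 13 members (12.9%) and 15.8% of all clones. The time point means of a member spanned 0.31 log2 units in the median, from 0.07 to 2.37, beside a median span of 0.33 over all clones. The median residual SD between mice of a time point was 0.22 for both. Of 606 time point means of members 565 lay within 0.25 log2 units of the mean of their own clone. The median of the 96 clones without Cdkn, each centred on its own mean, stayed between -0.05 and 0.06 in every mouse. Quantile normalization gave every OA microarray the same median of 8.21, so a median of many clones could hardly move. Neither this median nor the count of 565 has a value of all clones beside it.

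**Figure D2:**
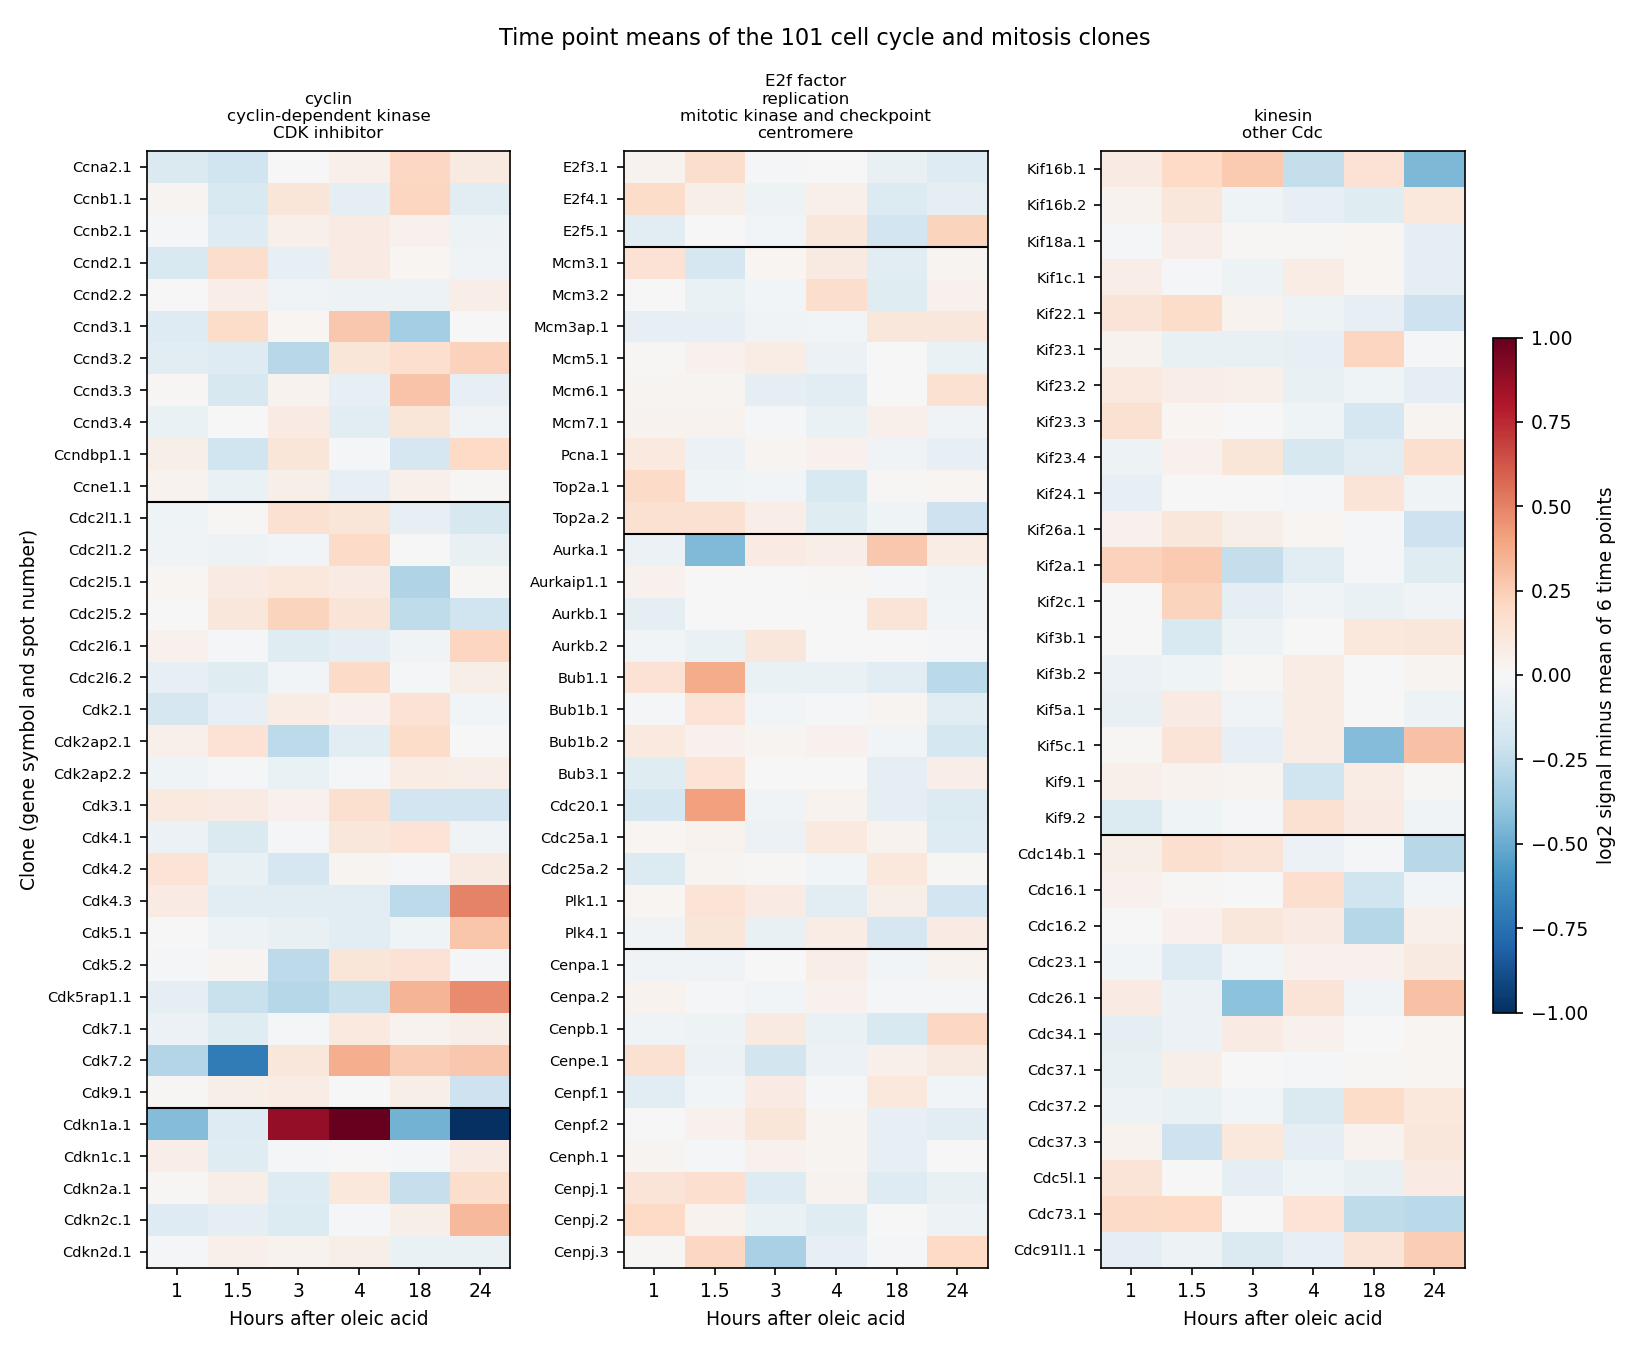
Time point means of the 101 clones, each minus its own mean over the 6 time points (colour, log2, from -1 in blue to 1 in red), with hours after OA on the horizontal axis and clones grouped by role on the vertical axis. Of the 606 cells 565 lie within 0.25 of 0, and Cdkn1a is the row with the deepest colours.

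Cdkn1a, the p21 inhibitor of cyclin-dependent kinases, rose from the early to the intermediate stage and fell again in the late stage. At 1 hour the 4 mice had 8.22, 8.93, 9.16 and 9.38. At 1.5 hours the 6 mice ranged from 8.50 to 9.56 with a median of 9.42. These early values straddled the empty spot threshold, and 10 of 18 early microarrays (4 of 8 and 6 of 10) exceeded it. At 3 hours the 7 mice ranged from 9.23 to 10.79 with a median of 10.46, and at 4 hours the 4 mice had 10.23, 10.43, 10.51 and 11.30. Of the 11 intermediate mice 9 lay above all 10 early mice, and the other 2, P15L2 with 9.23 and P16L2 with 9.31, lay among them. At 18 hours the 3 mice had 8.74, 8.83 and 9.06, and at 24 hours 8.08, 8.12 and 8.54, so that all 6 late mice were below every intermediate mouse. The intermediate mean exceeded the early mean by 1.35 ± 0.21 (SE) log2 units (limma, adjusted p = 0.00051). The late mean was below the intermediate mean with a difference of -1.86 ± 0.24 (SE) log2 units (limma, adjusted p = 3.6e-05). Late and early means differed by -0.51, with a 95% interval from -1.01 to -0.01 and an adjusted p of 0.23 (limma). No microarray at 24 hours exceeded the empty spots, and against that threshold the 4 hours mean of 10.61 was at least 3.18-fold higher than the 24 hours mean of 8.24.

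**Figure D3:**
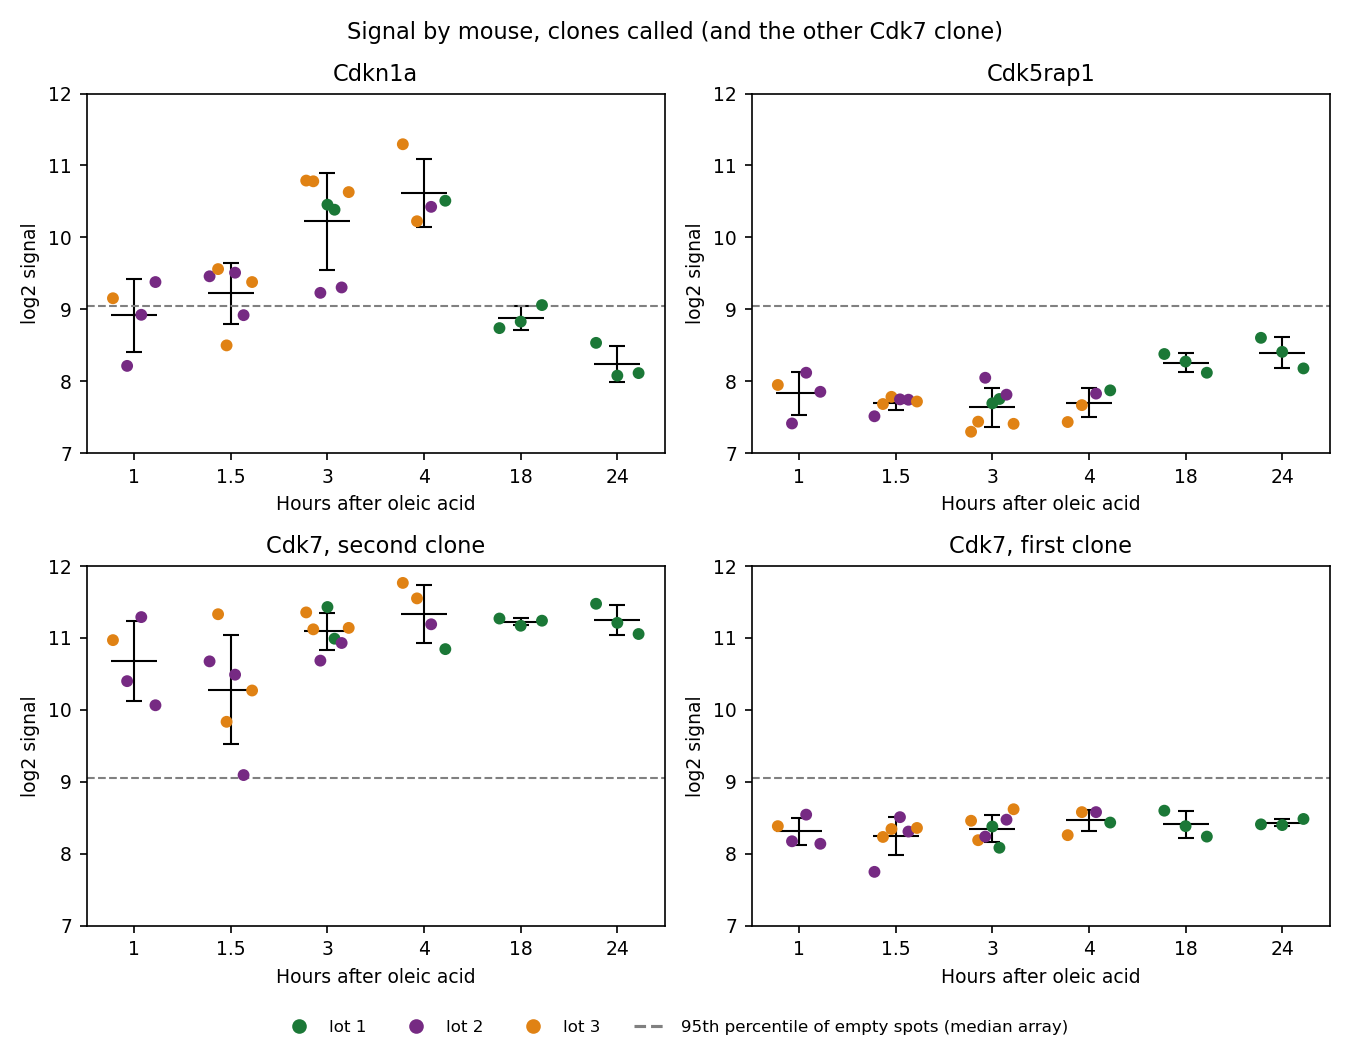
Log2 signal (vertical axis) of each OA mouse by hours after injection (horizontal axis) for Cdkn1a, Cdk5rap1 and both Cdk7 clones, with points coloured by lot, bars for the mean ± SD of 3 to 7 mice, and a dashed line for the 95th percentile of the empty spots. The 4 hours mice of Cdkn1a lie between 10.23 and 11.30, and Cdk5rap1 and the first Cdk7 clone stay under the line in every mouse.

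The labels of the OA mice hold a number after the letter L, called the lot here, which the sources do not explain. All 6 late mice are of lot 1 and no early mouse is. Both intermediate mice with low Cdkn1a are of lot 2, whose other intermediate mouse had 10.43. Within lots 2 and 3 the rise of Cdkn1a was 1.20 log2 units (limma, adjusted p = 0.048), and within lot 1 the late to intermediate difference was -1.91 (limma, adjusted p = 9.5e-04). Markers of other cells moved over the same stages, and their part in the Cdkn1a result was not tested. Of 6 B cell marker clones 3 fell from early to intermediate (limma), and the mean of the list ranged from 7.76 to 8.36 in early, 7.29 to 7.90 in intermediate and 7.70 to 8.03 in late mice. Of these 6 clones, of Ms4a1 and Cd79b, 0 were above background on 25 or more microarrays. Among the uncalled clones the third of Ms4a1 went up by 0.26 from early to intermediate. The fourth of Ms4a1 changed by -0.20 and the second of Cd79b by -0.60. Of 6 neutrophil clones 1, S100a8, was lower in the late than in the early stage (-1.54, limma, adjusted p = 0.046), and the list mean ranged from 9.39 to 10.73, 9.57 to 10.34 and 9.37 to 9.86. The uncalled clones of this list were split from early to late. S100a9 changed by -0.85 and Camp by -0.16, against 0.72 for Lcn2, 0.13 for Ltf and 0.02 for Il1r2. Defining genes of lung tissue were present, with the alveolar type II clones of Sftpd and Slc34a2 and the endothelial clones of Cldn5 and Cdh5 above background on all 50 microarrays. Slc34a2 was nonetheless lower in the late than in the early stage (-0.44, limma, adjusted p = 0.039). The other alveolar type II clones went the other way without a call, Napsa by 0.64 (limma, adjusted p = 0.088) and Sftpd by 0.10 (limma, adjusted p = 0.56). The study, which subtracted serum values, reported that Slc34a rose to a peak at 24 hours. Of 14 T cell clones 1, Cd3g, was lower in the intermediate than in the early stage (-0.43, limma, adjusted p = 0.025).

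The other inhibitors stood apart from Cdkn1a. Cdkn2c (p18), bright on all 50 microarrays, had means of 11.10, 11.14, 11.10, 11.22, 11.30 and 11.56 in order of time, and its late to early difference of 0.31 had a 95% interval from 0.10 to 0.51 (limma, adjusted p = 0.10). Cdkn1c (p57), Cdkn2a (p16 and p19Arf) and Cdkn2d (p19Ink4d) were above background on no microarray. Their stage differences lay between -0.11 and 0.05.

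Cdk7, the kinase that activates other cyclin-dependent kinases and belongs to the transcription factor TFIIH, was printed as 2 clones that did not behave alike. The second clone, above background on 49 of 50 microarrays, had 10.07, 10.40, 10.97 and 11.29 in the 4 mice at 1 hour and from 9.10 to 11.33 (median 10.38) at 1.5 hours. It had from 10.69 to 11.43 (median 11.12) at 3 hours, and 10.85, 11.19, 11.55 and 11.77 at 4 hours. The late mice were close together, with 11.17, 11.24 and 11.27 at 18 hours and 11.06, 11.21 and 11.48 at 24 hours. Of the 11 intermediate mice 4 lay above all 10 early mice, so the stages overlapped. The intermediate to early difference of 0.73 ± 0.20 (SE) was called by the narrowest margin (limma, adjusted p = 0.0499) and was no longer called when any 1 of 22 of the 27 mice was left out, with adjusted p up to 0.14. With the lot as a block the difference was 0.66 and not called (limma, adjusted p = 0.18), and within lots 2 and 3 it was 0.69 (limma, adjusted p = 0.33). The late to early difference of 0.75 had a 95% interval from 0.27 to 1.24 (limma, adjusted p = 0.087). The first clone of the same gene was above background on no microarray. Its intermediate to early difference was 0.13, with a 95% interval from -0.06 to 0.31 (limma, adjusted p = 0.51). Across the 27 mice the 2 clones had a Pearson's r of 0.27.

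Cdk5rap1, the transfer RNA enzyme whose name comes from its binding to the Cdk5 activator, was called over the 6 time points (limma, adjusted p = 0.011). It was above background on 0 of 50 microarrays, so its differences are those of the measured signal and not fold changes of the transcript. The call over the 6 time points was lost with the lot as a block and without mouse P8L1 of 24 hours. It had 7.42, 7.86, 7.95 and 8.12 at 1 hour, from 7.52 to 7.79 (median 7.73) at 1.5 hours, from 7.30 to 8.05 (median 7.70) at 3 hours and 7.44, 7.67, 7.83 and 7.88 at 4 hours. It had 8.12, 8.28 and 8.38 at 18 hours and 8.18, 8.41 and 8.61 at 24 hours. All 6 late mice were above all 11 intermediate mice, and 5 of the 6 were above all 10 early mice. Late exceeded early (limma, adjusted p = 0.011) and intermediate (limma, adjusted p = 7.9e-04). With the lot as a block these became 1.00 and 0.14, and within lot 1 alone the late to intermediate call was lost as well (limma, adjusted p = 0.14), although its size of 0.53 log2 units was close to the 0.66 over all lots and the 3 intermediate mice of lot 1 (7.70 to 7.88) did not overlap the 6 late mice (8.12 to 8.61). The late to early call was also lost without mouse P8L1 of 24 hours (limma, adjusted p = 0.053). Late stage and lot 1 cannot be told apart for the comparison with the early stage.

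The 3 stage contrasts share their mice in pairs, and each is given on its own. From early to intermediate 2 members were called (Cdkn1a and Cdk7), 1.98% of the members beside 2.57% of all clones. From early to late 1 member was called (Cdk5rap1), beside 1.65% of all clones. From intermediate to late 2 members were called (Cdkn1a down and Cdk5rap1 up), beside 3.19% of all clones. The median difference of the 101 clones was -0.003, -0.01 and -0.01 in the 3 contrasts, beside -0.001, -0.002 and -0.003 over all clones. The data bound what the other members could have done: for 99 of the 101 clones, all but Cdkn1a and the second Cdk7 clone, the 95% interval lay within 1 log2 unit of 0 in every stage contrast, and for 76 within 0.5. Over all clones these shares were 94.5% and 65.4%, and among the members 98.0% and 75.2%. For the dim clones such an interval bounds the measured signal and not the transcript.

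**Figure D4:**
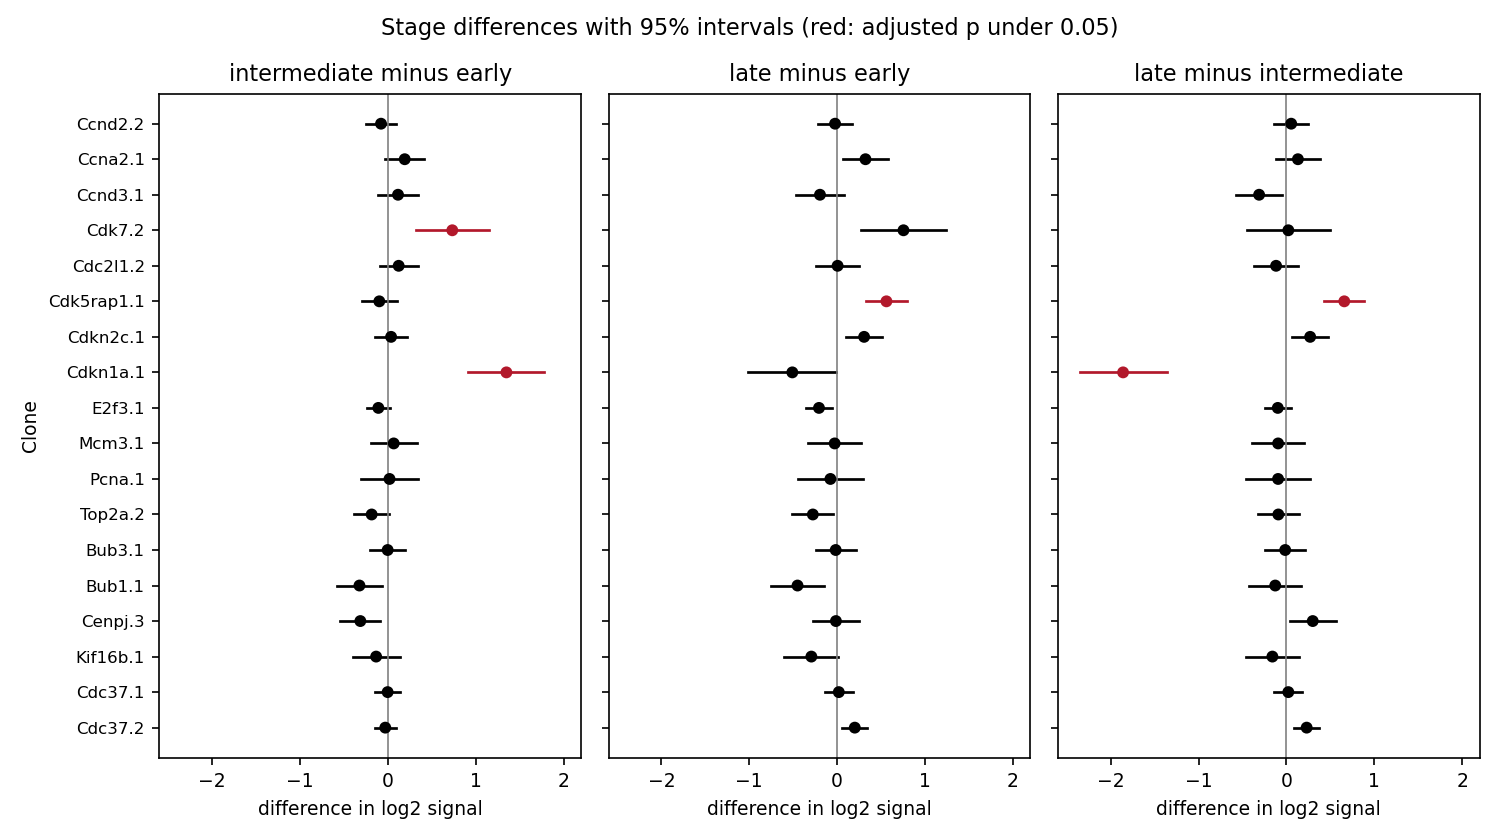
Differences in log2 signal between stages (horizontal axis) with 95% intervals for 18 clones (vertical axis): those called, the 10 of highest mean signal and the clone of smallest p in each role group. Red marks an adjusted p under 0.05. Cdkn1a lies at 1.35, -0.51 and -1.86 in the 3 panels, and the intervals of Bub3 and Pcna include 0 in each.

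The sequences before the start sites of the 3 genes with a called clone are shown. The calls of Cdk5rap1 and of the second Cdk7 clone did not hold with the lot as a block. All 71 member symbols matched RefSeq (4 through an older name) and 59 of them had at least 1 promoter window, 69 windows in all. The 250 bases upstream of each start site were searched on both strands for CCAAT, the GC box GGGCGG, the TATA box TATAAA, the cell cycle homology element (CHR) TTTGAA, the E2F letters TTTCGCGC or TTTGGCGC, and the p53 response element with at most 1 base different from its consensus. Cdkn1a has 2 RefSeq start sites. Each sequence is from GRCm38.p6 and reads 5′ to 3′ on the strand of its gene, with motif letters in capitals.
Cdkn1a, distal start, chr17:29090729-29090978, plus strand: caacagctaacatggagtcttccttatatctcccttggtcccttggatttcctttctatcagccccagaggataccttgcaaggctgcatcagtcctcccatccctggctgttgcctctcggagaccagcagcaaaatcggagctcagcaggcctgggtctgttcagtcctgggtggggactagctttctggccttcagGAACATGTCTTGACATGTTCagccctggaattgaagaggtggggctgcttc
Cdkn1a, proximal start, chr17:29093519-29093768, plus strand: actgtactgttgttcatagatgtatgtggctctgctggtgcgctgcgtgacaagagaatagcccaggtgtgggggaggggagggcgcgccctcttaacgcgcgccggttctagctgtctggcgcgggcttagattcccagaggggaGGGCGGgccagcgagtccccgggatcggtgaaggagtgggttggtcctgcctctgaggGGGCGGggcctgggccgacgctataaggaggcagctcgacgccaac
Cdk7, chr13:100730943-100731192, minus strand: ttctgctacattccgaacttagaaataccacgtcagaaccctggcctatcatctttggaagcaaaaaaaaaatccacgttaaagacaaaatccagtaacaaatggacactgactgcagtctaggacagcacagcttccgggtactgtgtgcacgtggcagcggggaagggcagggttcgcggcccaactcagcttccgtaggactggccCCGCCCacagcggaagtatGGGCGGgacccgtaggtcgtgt
Cdk5rap1, chr2:154372720-154372969, minus strand: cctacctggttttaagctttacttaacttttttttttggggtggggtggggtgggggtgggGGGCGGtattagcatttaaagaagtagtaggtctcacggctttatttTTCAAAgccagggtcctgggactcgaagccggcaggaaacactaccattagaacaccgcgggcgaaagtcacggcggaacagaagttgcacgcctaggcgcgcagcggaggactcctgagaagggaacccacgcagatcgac
The capitals before the distal Cdkn1a start are a p53 response element 51 to 32 bases upstream, and those before the proximal start are 2 GC boxes. Cdk7 has 2 GC boxes, 1 on each strand, 41 to 36 and 22 to 17 bases upstream. Cdk5rap1 has a GC box 189 to 184 bases upstream and a CHR on the other strand 142 to 137 bases upstream. None of these motifs overlap each other.

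Of 32851 mouse promoter windows 25 (0.0761%) held a p53 response element by this count, and Cdkn1a was the only member with one. The limit of 1 different base was chosen after its matches were seen. Neither the share nor Cdkn1a being the only member is thus independent of the matches. The GC box stood in 48 of 69 member windows (69.6%) and in 32.7% of all windows, and CCAAT in 33 (47.8%) and 33.8%. E2F letters stood in 4 member windows (5.8%), those of Cdc25a, Kif18a, Mcm5 and Mcm6, and in 0.654% of all windows. The CHR stood in 9 member windows (13.0%), of Bub3, Ccnb2, Cdc20, Cdk5rap1, E2f3, Kif22, Kif2c and Top2a, and in 16.0% of all windows. The TATA box stood in 4 member windows (5.8%) and 12.4% of all. The 4 genes with E2F letters had no called clone in the time course, beside 2.01% of all clones, a share too small for so few clones to tell anything. Both Cdc25a clones and those of Kif18a and Mcm5 were above background on 0 of the 42 OA microarrays at the times shared with serum.

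No cyclin was called over the time course. Ccnd2, a D cyclin that starts the cycle in response to growth factors, ranged from 12.03 to 12.75 over the 27 mice in its second clone, with time point means between 12.32 and 12.44. Its intermediate to early difference was -0.08, with a 95% interval from -0.25 to 0.09 (limma, adjusted p = 0.70). Ccna2, the cyclin of DNA synthesis and mitotic entry, ranged from 10.16 to 11.17, and its late to early difference of 0.32 had an interval from 0.07 to 0.58 (limma, adjusted p = 0.15). Ccnd3, another D cyclin, had the smallest p of this group in its first clone (limma, adjusted p = 0.28 over the 6 time points), which was dim on all microarrays. None of the 11 cyclin clones was called in any stage contrast (limma), and 0, 1 and 1 had an unadjusted p under 0.05 from early to intermediate, early to late and intermediate to late, beside 16.7%, 20.6% and 15.6% of all clones.

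Among the 19 clones of cyclin-dependent kinases and their partners, Cdc2l1, the kinase now named Cdk11b that acts in RNA processing and mitosis, ranged from 10.26 to 11.18 in its second clone. Its late to early difference was 0.005, with a 95% interval from -0.24 to 0.25. The dim clones of Cdk2 and Cdk3 and the 3 clones of Cdk4, the partner of the D cyclins, were not called in any contrast. The called clones of Cdk5rap1 and Cdk7 described above belong to these 19. Of the 19 clones 5 (26.3%) had an unadjusted p under 0.05 over the 6 time points (limma), beside 15.8% of all clones. From early to intermediate, early to late and intermediate to late 3, 3 and 5 did, beside 16.7%, 20.6% and 15.6% of all clones.

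No replication or E2f clone was called in any contrast (limma). Of these 12 clones 0 had an unadjusted p under 0.05 over the 6 time points, beside 15.8% of all clones. Pcna, the sliding clamp of DNA polymerase, had means of 9.93, 9.78, 9.86, 9.88, 9.80 and 9.75 in order of time with mice from 8.59 to 10.28. Its late to early difference of -0.08 had an interval from -0.45 to 0.29 (limma, adjusted p = 0.84). Mcm3, a subunit of the replicative helicase, ranged from 8.93 to 10.57 in its first clone, with a late to early interval from -0.33 to 0.27. Top2a, the topoisomerase of dividing cells, was above background on no microarray in either clone. Its second clone had the smallest p of the group (limma, adjusted p = 0.46 over the 6 time points). E2f3, an activating E2f factor, was dim throughout with a late to early difference of -0.21 (interval from -0.36 to -0.06, limma, adjusted p = 0.13).

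Mitotic genes were mostly dim and none was called over the 6 time points or between stages. Bub3, a checkpoint protein that holds anaphase until the chromosomes are attached, was above background on 46 of 50 microarrays, with means from 9.55 to 9.80 and a late to early interval from -0.24 to 0.21. Bub1, the kinase of the same checkpoint, was above background on none. Its means went from 7.95 and 8.17 at 1 and 1.5 hours to 7.68 and 7.53 at 18 and 24 hours, and the late to early difference of -0.45 had an interval from -0.75 to -0.15 (limma, adjusted p = 0.096). Aurka, Aurkb, Plk1, Plk4 and both Cdc25a clones were above background on no microarray, and Cdc20, an activator of the anaphase-promoting complex, on 1. The centromere clone of smallest p was the third of Cenpj, a centriole protein, at an adjusted p of 0.18 over the 6 time points (limma).

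Kinesins and the other Cdc genes gave no call either. At an unadjusted p under 0.05 (limma) 0, 3 and 4 of the 12 other Cdc clones passed from early to intermediate, early to late and intermediate to late. Of the 19 kinesin clones 2, 3 and 0 did, beside 16.7%, 20.6% and 15.6% of all clones. Kif16b, a motor of endosome transport, ranged from 8.96 to 10.42 in its first clone, with an adjusted p of 0.17 over the 6 time points (limma). Kif22, a chromosome motor, was dim, with a late to early difference of -0.30 (interval from -0.48 to -0.11, limma, adjusted p = 0.081). Cdc37 was above background on all 50 microarrays in its first and second clones. The second had a late to intermediate difference of 0.23 (interval from 0.09 to 0.37, limma, adjusted p = 0.064), and the first 0.02 (interval from -0.14 to 0.18). One mouse weighed on these counts: without P4L3 at 1.5 hours 6 members instead of 1 were called from early to late, namely Bub1, Cdc37, Cdc73, Cdk5rap1, Cdk7 and Kif22, while the calls over all clones went from 126 to 474.

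A list of 93 other cell cycle genes (the retinoblastoma family, origin recognition, condensins, checkpoint kinases and others), of which 60 were on the microarray as 83 clones, was counted beside the members. Over the 6 time points 1 clone was called and 9 had an unadjusted p under 0.05, beside 2.01% and 15.8% of all clones. The called clone was Ube2c, the ubiquitin carrier of the anaphase-promoting complex, bright on 49 of 50 microarrays with means of 10.79, 10.24, 11.20, 11.46, 11.43 and 11.50 in order of time. Its intermediate to early difference was 0.82 ± 0.19 (SE) (limma, adjusted p = 0.020) and its late to early difference 0.95 ± 0.22 (SE) (limma, adjusted p = 0.032). For the late to early difference, late stage and lot 1 cannot be told apart. The values of Ube2c followed the second Cdk7 clone over the 27 mice with a Pearson's r of 0.76, given as a description. From intermediate to late 1 clone of the list was called, Rfc2, a subunit of the clamp loader, higher by 0.29 (limma, adjusted p = 0.046) while dim on all microarrays. The median differences of the list were -0.01, -0.06 and -0.02 in the 3 contrasts.

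Genes printed as several clones show how far a single clone can be read. Of the members 23 genes had 2 to 4 clones, which made 39 pairs. Over the 27 mice the median Pearson's r of a pair was 0.12, from -0.15 to 0.74, and 2 pairs exceeded 0.5. Over all 1388 genes with several clones the median of 2223 pairs was 0.18, and 363 exceeded 0.5. The highest members were pairs of Cenpj (0.74 and 0.56). The 6 pairs of the 4 Ccnd3 clones lay between -0.15 and 0.18 and the 6 pairs of Kif23, a motor of cytokinesis, between -0.12 and 0.42. All clones of a pair were hybridized to the same RNA on the same microarray. The SD between the 2 microarrays of 1 mouse was 0.24 in the median of the members (23 mice), on the scale of single microarrays. The residual SD of 0.22 between mice of a time point is on the scale of mouse means, most of them of 2 microarrays. It already holds a part of the spread between microarrays, so the 2 values cannot be compared directly.

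How the members compared with the serum mice was asked on the array intensities, which alone hold single serum microarrays. Averaged over the 5 shared time points 69 of 101 members differed between OA and serum (limma, adjusted p under 0.05), 30 higher and 39 lower in OA. Of all clones 61.6% differed, 34.3% higher and 27.3% lower, so most of the microarray differed and the members' 68.3% is read against that. With the 29 members above background on 25 or more microarrays alone, 20 differed, 8 higher and 12 lower, beside 58.3% of the 2645 clones of all genes that were as bright. Of the 69 called members 35 were above background on no microarray of either treatment, and for these no fold is given. The serum microarrays were dimmer, with raw median log2 intensities from 5.73 to 8.39 against 6.75 to 9.36 for OA. With the raw median brightness of the microarray as a covariate 64 members differed, 25 higher and 39 lower, and 4386 of all clones. One serum microarray stood apart, that of a 3 hours mouse, with the lowest raw median (5.73) and 17.5% of clones above background against 31.3% to 37.4% on the other serum microarrays. With any 1 of the 9 serum microarrays left out, this one included, 65 to 70 members differed. Of the 69 called members 62 had the same sign at all 5 time points (89.9%, beside 86.1% of all called clones). By time point 33, 13, 46, 32 and 26 members were called at 1, 1.5, 3, 18 and 24 hours, beside 30%, 14.1%, 40.1%, 29.2% and 22.3% of all clones.

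The counts by role are read beside the 61.6% of all clones that differed, 34.3% higher and 27.3% lower. Of 11 clones counted as cyclins 10 differed between OA and serum (3 higher and 7 lower in OA, Ccndbp1 among the lower). So did 16 of 19 clones of cyclin-dependent kinases and partners (6 and 10), and 6 of 9 replication clones (0 and 6). Of these 6 lower replication clones only Mcm6 was above background on any microarray of either treatment. The bright Pcna clone (limma, adjusted p = 0.96) and first Mcm3 clone (limma, adjusted p = 0.37) did not differ. Of the mitotic kinase and checkpoint clones 8 of 13 differed (5 and 3), of the centromere clones 6 of 10 (3 and 3), of the kinesins 12 of 19 (8 and 4), of the other Cdc genes 9 of 12 (3 and 6), of E2f 1 of 3 and of the Cdkn inhibitors 1 of 5. The second Cdk7 clone was above background on 41 of 42 OA microarrays of the shared time points and on 0 of 9 serum microarrays, with time point means averaging 10.81 in OA and 8.08 in serum. Against the threshold of the empty spots it was at least 3.48-fold higher in OA (limma, adjusted p = 7.9e-13). The first Cdk7 clone, above background on no microarray of either treatment, differed by -0.01 ± 0.09 (SE) (limma, adjusted p = 0.90). Ube2c, outside the members, was likewise above background on 41 of the OA and 0 of the serum microarrays and was at least 3.81-fold higher in OA (limma, adjusted p = 3.2e-13). Ccna2 was higher in OA by 1.04 ± 0.10 (SE) and the last Ccnd3 clone lower with a difference of -0.93 (limma, adjusted p = 4.4e-10).

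Some clones of the same gene went opposite ways in this comparison. Of 21 member pairs with both clones called 7 (33.3%) had opposite signs, beside 30.2% of 864 such pairs over all genes. Cdk5, a kinase best known from neurons, was -0.87 in its first clone and 0.99 in its second, both above background on no microarray of either treatment. Ccnd2 was -0.84 and 0.56, Cdc2l5 (now Cdk13) -0.73 and 1.04, and Cdc2l1 -0.26 and 1.77. The other 3 genes were Cdc2l6 (now Cdk19), Cenpf and Kif9. In these 7 genes the sign of the difference depended on the clone that was read. That of the second Ccnd2 clone also turned with the scaling, to -0.27 when microarrays were centred on their medians (limma, adjusted p = 0.0055).

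**Figure D5:**
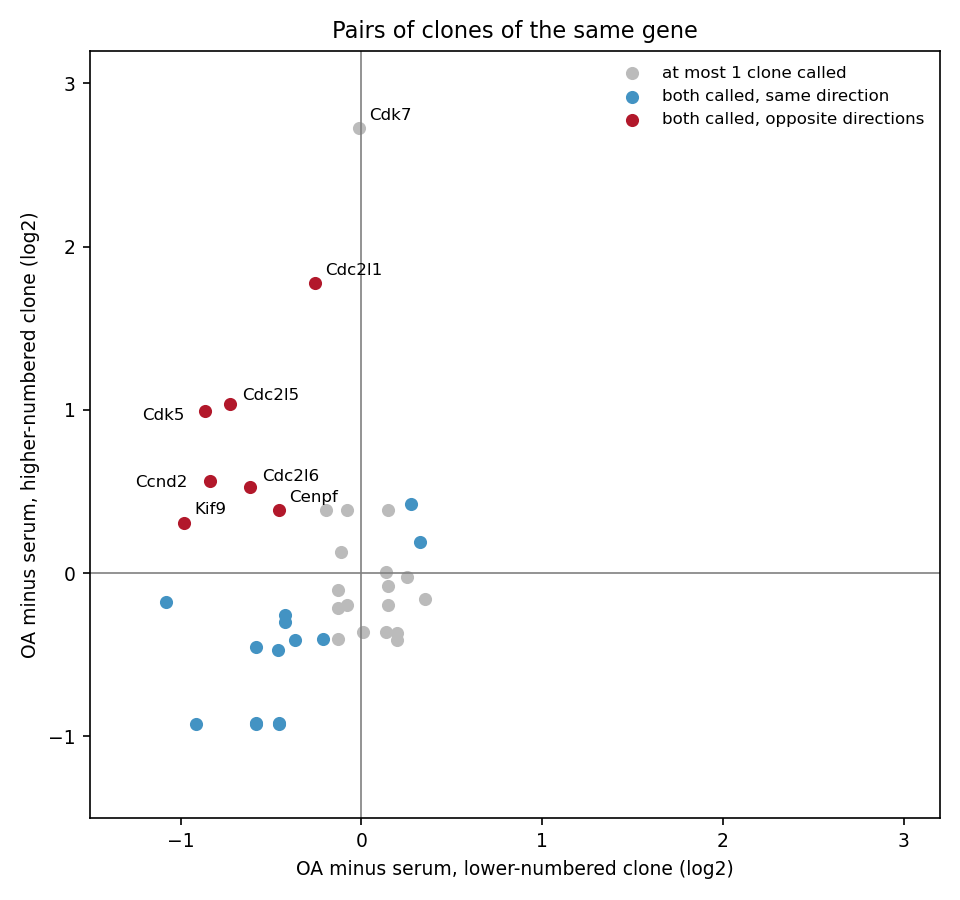
OA minus serum difference (log2, mean of 5 time points) of the lower-numbered clone of a gene (horizontal axis) against that of a higher-numbered clone (vertical axis) for the 39 pairs of member clones. The 7 red pairs, both called and with opposite signs, lie in the upper left, and Cdk7 lies at -0.01 and 2.73.

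Whether the course of the members differed between OA and serum mice was tested as the change of OA minus serum between stages, with 3 hours for the intermediate stage. No member was called for 3 hours minus early, late minus early or late minus 3 hours (limma), and 8, 9 and 9 had an unadjusted p under 0.05. Of all clones 0%, 0.0262% and 0.0131% were called, and 8.04%, 8.25% and 7.42% had an unadjusted p under 0.05. For Cdkn1a the serum mice had 8.42 and 9.22 at 1 hour, 8.47 at 1.5 hours, 8.80 and 10.42 at 3 hours, 8.29 and 9.07 at 18 hours and 8.22 at 24 hours. One of the 2 serum mice at 3 hours thus lay within the OA range at that time. Its value of 10.42 came from the single serum microarray that stood apart in brightness, so the higher serum level at 3 hours rests on that microarray, and its part in the value was not tested. OA minus serum was 0.50 ± 0.41 (SE) at 3 hours (limma, adjusted p = 0.34) and 0.24 ± 0.22 (SE) over the 5 times (limma, adjusted p = 0.36). Without that microarray the mean difference was 0.40 (limma, adjusted p = 0.11), without the other 3 hours serum mouse 0.08 (limma, adjusted p = 0.77), and with brightness as a covariate 0.43 (limma, adjusted p = 0.15). The rise from early to 3 hours was larger in OA by 0.19 ± 0.54 (SE) (limma, adjusted p = 0.97), an SE larger than the difference itself. A rise particular to OA was thus not detectable against these serum mice. Pcna differed by -0.01 ± 0.16 (SE) over the 5 times (limma, adjusted p = 0.96). The spread of the serum mice within a time point rests on 3 degrees of freedom.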

How the data were processed

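Lung RNA was labelled with 33P and hybridized to nylon membranes printed with PCR products of cDNA clones, 1 membrane per labelling. Per the labels and the study's methods, the images were quantified with Bzscan2, and the deposited log2 table holds quantile-normalized signal of each OA microarray, with 1 column per time point for serum. The deposited intensity of each spot is on a linear scale, 9984 spots per microarray. The OA columns matched the log2 intensity at constant spot diameter with Pearson's r from 0.9974 to 0.9998. The serum columns were not used, since they hold 1 value per time point and so no spread between mice. Per the methods, spots raised by their neighbours were taken out by hand, and sample signals were corrected for neighbouring spots and local background. Whether the deposited intensities already hold that correction is not given in the sources used here. Depth does not apply to microarrays, and the number of mice limits the precision.

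The members and all gene lists were chosen with earlier results of these data known, and the limit of 1 different base for the p53 element was chosen after its matches were seen. Named clones were those called, the 10 of highest mean signal, the clone of smallest p in each role group and genes with several clones. Some others (Cdk2, Cdk3, Cdk4, Kif2c, Kif22, Cdc73, Aurka, Aurkb, Plk1, Plk4, Cdc20, Cdc25a, further Cdkn genes, Mcm5, Mcm6, Kif18a, Rfc2 and Ube2c) were named after their values were seen. Microarrays of a mouse were averaged, so 1 mouse was 1 replicate. The 6 time points of the OA table were fitted with limma 3.58.1 in R 4.3.3 (lmFit, eBayes), with Benjamini-Hochberg adjustment over all 7625 named clones in each comparison and a threshold of 0.05, and the stage contrasts came from the same fit. The comparison with serum mice was a separate limma fit on intensities, raised to a floor of 1, taken to log2 and quantile-normalized over all 60 microarrays. The microarray with no resolved mouse at 1.5 hours was left out. Mouse P7L3 has 1 microarray whose labels name 2 times, and it was kept at 3 hours. No microarrays held identical values, and r between the 2 microarrays of 1 mouse was 0.904 to 0.963. The scripts were tested on simulated data. Alternatives were the fitted spot signal, other scaling, a filter on dim clones, the lot as a block or within lots, brightness as a covariate, single microarrays, doubtful microarrays and each mouse or serum microarray left out. The change of OA minus serum between stages was added after seeing the data. One gene of the B cell marker list is not reported here and was left out of that list.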

Additional observations from a re-analysis of the deposited data

Results flagged for a closer look

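In 72 groups of 4 to 7 OA mice of 1 time point, over 18 named clones, 6 groups held a mouse that stood apart from the others by Dixon's criterion, which chance alone meets in about 1 in 20 groups. Mcm3 (first clone) had its lowest value at 1.5 hours in P7L2, 8.93 with the next mouse at 9.98. Bub3 had its lowest value at 1 hour in P4L2, 9.195 with the next at 9.61. Cdk5rap1 had its lowest value at 1.5 hours in P8L2, 7.515 with the next at 7.685. Bub1 had its highest value at 3 hours in P9L3, 8.365 with the next at 7.81. E2f3 had its highest value at 4 hours in P11L2, 7.42 with the next at 7.31. Cdc2l1 (second clone) had its highest value at 4 hours in P13L3, 11.175 with the next at 10.715. The 6 values came from 6 different mice. P7L2, which held the low Mcm3 value, also had the highest Cdc20, Kif2c and Plk1 and the lowest Aurka and Pcna of the OA mice. Its Pcna value was not flagged by the criterion, and Cdc20, Kif2c, Plk1 and Aurka were not among the 18 clones.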

How the results depend on the processing

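Cdkn1a kept both of its stage calls under every alternative run, at 1.23 to 1.43 for intermediate minus early and -1.94 to -1.75 for late minus intermediate over the 27 mice left out in turn. The counts of calls, of members and of all clones, moved more. With the fitted signal 62 clones were called over the 6 time points, 1 member and 63 clones from early to intermediate, 0 and 49 from early to late, and 79 clones from intermediate to late. With median-centred intensities 3 members were called from early to intermediate, the third clone of Cenpj being added. With dim clones left out, which tests fewer clones, 1 member and 98 clones were called over the time points, 126 clones from early to intermediate, 0 members from early to late, and 1 member and 113 clones from intermediate to late; against serum 20 members (8 higher, 12 lower) and 1542 clones were called. With the lot as a block the counts were 1 and 71 over the time points, 1 and 69, 0 and 2, and 1 and 44 in the 3 contrasts. Within lots 2 and 3 the intermediate to early counts were 1 and 30, and within lot 1 the late to intermediate counts 1 and 49. Brightness as a covariate, or leaving out the microarray with conflicting labels, gave 1 member from early to intermediate. With single microarrays 3 members and 438 clones were called over the time points, 376 clones from early to intermediate, 4 and 350 from early to late, and 4 members from intermediate to late. Leaving out 1 mouse gave 1 to 3 members and 89 (P7L1) to 299 (P4L3) clones over the time points, 1 to 2 and 101 (P2L2) to 392 (P4L3) from early to intermediate, 0 (P8L1) to 6 (P4L3) and 37 (P7L1) to 474 (P4L3) from early to late, and 2 to 3 and 122 (P8L1) to 277 (P4L1) from intermediate to late. Leaving out 1 serum microarray gave 65 to 70 members (25 to 30 higher, 37 to 41 lower) and 4510 to 4728 clones. Signs turned for Ccnd2 (second clone, -0.27 with median-centring) and for the uncalled Pcna difference from serum (0.0845 with brightness as a covariate, and -0.129 to 0.11 with 1 serum microarray left out). The causes were not tested. No paired analysis was possible because the replicate numbers only name mice and each mouse was sacrificed at 1 time.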
